A study of Mus musculus with 2 samples.

Results

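Pluripotency genes encode the factors that hold embryonic stem cells in a state from which every tissue can form, and most of them are switched off when cells enter the neural lineage. The 10 genes described here were chosen by their symbols in the GENCODE M1 annotation of the mouse genome build mm9, and they are 10 of the 22367 protein-coding genes and 37273 genes of that annotation. They comprised the transcription factors Pou5f1, Nanog, Klf4, Esrrb, Sall4 and Zfp42, the chromatin factors Utf1 and Dppa4, the RNA-binding protein Lin28a and the co-receptor Tdgf1. The choice rule named symbols and no measured value, although earlier results of these data were known when the genes were chosen. The cells were primary neural stem/progenitor cells (NSPCs) of the C57BL/6 strain, cultured from the frontal brain at postnatal day 7. Per the paper, and not the labels, the NSPCs had been treated with 0.5 μM aphidicolin, an inhibitor of DNA polymerases, for 48 h. The assay was DRIP-seq: genomic DNA is cut with restriction enzymes, the antibody S9.6 pulls down fragments that carry RNA:DNA hybrids, and their DNA is sequenced. The 2 samples were this DRIP and its input DNA, and the values below come from 1 list of 22132 R-loop peaks for the DRIP. Since there was only this list, with no score, signal or read count, there is no replicate error, no test was possible and the depth behind a peak is unknown. An absent peak therefore means that no peak was called, and not that a gene held no hybrids.

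An R-loop forms when an RNA pairs with the DNA strand it was copied from and leaves the other strand single. R-loops are known to arise over transcribed DNA, often near the start of genes with CpG islands, where the coding strand tends to carry more G than C. In pluripotent cells Pou5f1 (also called Oct4) and Nanog are core regulators of one network with Sox2, Klf4 and Esrrb support the naive state, and Lin28a blocks maturation of the let-7 microRNAs. Klf4 differs from most of the others in that it is also used in differentiated tissues such as epithelia, and Sox2, which is not among the 10 genes, is kept in neural progenitors.

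In NSPCs, 1 of the 10 pluripotency genes, Klf4, overlapped an R-loop peak by at least 1 bp. Among all protein-coding genes 8858 of 22367, or 39.6%, did so. The Klf4 peak also held the transcription start site (TSS), taken as the 5′ limit of the gene, which was true of 14.9% of protein-coding genes. With peaks of at least 1 kb alone, Klf4 was again the single gene of the 10, compared to 31.8% of protein-coding genes. Pou5f1, Nanog, Esrrb, Sall4, Zfp42, Utf1, Dppa4, Lin28a and Tdgf1 contained no peak. Extending each gene by 2 kb on both sides added none of these 9 genes, where 43.1% of protein-coding genes had a peak. Extending by 10 kb added none either, against 51.3% of protein-coding genes.

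The starts of these genes differed in sequence, and 5 of them are shown here because they span the range from the gene with the peak to the gene farthest from one. Each line gives the 150 bp before the TSS in mm9, on the coding strand and 5′ to 3′, with CpG dinucleotides in capitals.
Klf4, chr4:55545348-55545497, minus strand: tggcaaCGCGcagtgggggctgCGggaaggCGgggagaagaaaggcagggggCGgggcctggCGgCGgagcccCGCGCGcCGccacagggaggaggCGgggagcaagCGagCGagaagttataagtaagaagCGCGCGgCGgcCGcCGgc
Utf1, chr7:147129538-147129687, plus strand: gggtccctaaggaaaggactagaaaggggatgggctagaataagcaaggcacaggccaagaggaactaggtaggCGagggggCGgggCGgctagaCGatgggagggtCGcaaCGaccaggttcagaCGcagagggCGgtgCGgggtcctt
Pou5f1, chr17:35642832-35642981, plus strand: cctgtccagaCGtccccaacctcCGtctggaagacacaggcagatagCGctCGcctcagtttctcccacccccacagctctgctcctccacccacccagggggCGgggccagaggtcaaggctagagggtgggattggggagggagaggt
Nanog, chr6:122657357-122657506, plus strand: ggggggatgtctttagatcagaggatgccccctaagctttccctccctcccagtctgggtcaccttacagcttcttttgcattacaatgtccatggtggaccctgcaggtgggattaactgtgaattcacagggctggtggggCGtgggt
Dppa4, chr16:48283698-48283847, plus strand: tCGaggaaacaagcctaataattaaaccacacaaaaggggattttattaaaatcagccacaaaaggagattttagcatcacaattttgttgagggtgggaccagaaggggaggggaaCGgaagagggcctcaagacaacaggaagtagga
The stretch before Klf4 contained 20 CpG dinucleotides and was 74.0% G or C, and it lay wholly inside the R-loop peak. The CpG count was 9 before Utf1, 5 before Pou5f1, 2 before Dppa4 and 1 before Nanog, and none of these stretches lay in a peak. Among the stretches not printed, Zfp42 had 7 CpG dinucleotides, Lin28a and Tdgf1 had 6 each, Esrrb had 3 and Sall4 had 2. The stretch of Sall4 lies before a non-coding transcript, and not before its protein-coding starts.

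Runs of G on the coding strand were not limited to the gene with a peak. The next 2 lines show, for Klf4 and for Dppa4, the 60-bp segment within 1 kb of the TSS, outside UTRs, in which G most outnumbers C on the strand given, with runs of at least 3 G in capitals.
Klf4, chr4:55545427-55545486, minus strand: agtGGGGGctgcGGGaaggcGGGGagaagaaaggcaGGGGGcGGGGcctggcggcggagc
Dppa4, chr16:48284654-48284713, plus strand: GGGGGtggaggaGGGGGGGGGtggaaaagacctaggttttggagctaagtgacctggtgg
The Klf4 segment lay from -139 to -80 bp relative to the TSS, held 36 G and 10 C, and fell inside the peak. The Dppa4 segment began 806 bp after the TSS, with 32 G and 5 C, in a gene whose nearest peak was 467.384 kb away.

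Klf4 encodes a zinc finger transcription factor that is 1 of the reprogramming factors used to make induced pluripotent stem cells. The gene (ENSMUSG00000003032) spans chr4:55540013-55545347 on the minus strand and its R-loop peak spans chr4:55544345-55546866. The peak was 2.522 kb wide, wider than 71.5% of all peaks in the list. It began 1519 bp upstream of the TSS and reached 1003 bp into the gene, so that 39.8% of the peak lay inside Klf4 and 18.8% of Klf4 was covered. The portion inside the gene comprised 750 bp annotated as exon, of which 126 bp were coding, and 253 bp of intron. All 4 annotated Klf4 transcripts started inside the peak. The remaining 4332 bp of the gene, up to its 3′ end, held no peak. The midpoint of the peak lay outside Klf4, so the count of genes with a peak became 0 of 10 when the midpoint, or at least 50% of the peak, had to lie inside the gene. Beyond this peak the surroundings were sparse, with the next peak 134.241 kb away on the downstream side, over Rad23b, and 913.36 kb away on the upstream side.

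The sequence under the Klf4 peak was 61.8% G or C and its CpG content was 0.839 of that given by its base composition (the observed over expected ratio). In the rest of the gene 50.5% of bases were G or C. GC skew, defined as (G - C)/(G + C) on the coding strand, was -0.0655 over the peak, -0.0882 in the portion upstream of the TSS and -0.0318 in the portion inside the gene. C was therefore more frequent than G on the coding strand over the peak as a whole, although the short G-rich segment shown above lies within it. The upstream edge of the peak was 18 bp from a restriction site of the digest, and the fragment that held the TSS ran from -1501 to 663 bp relative to it. The downstream edge was 339 bp from a site, and 2 sites lay within the peak. Whether the position of the peak followed from the digest was not tested.

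**Figure D1:**
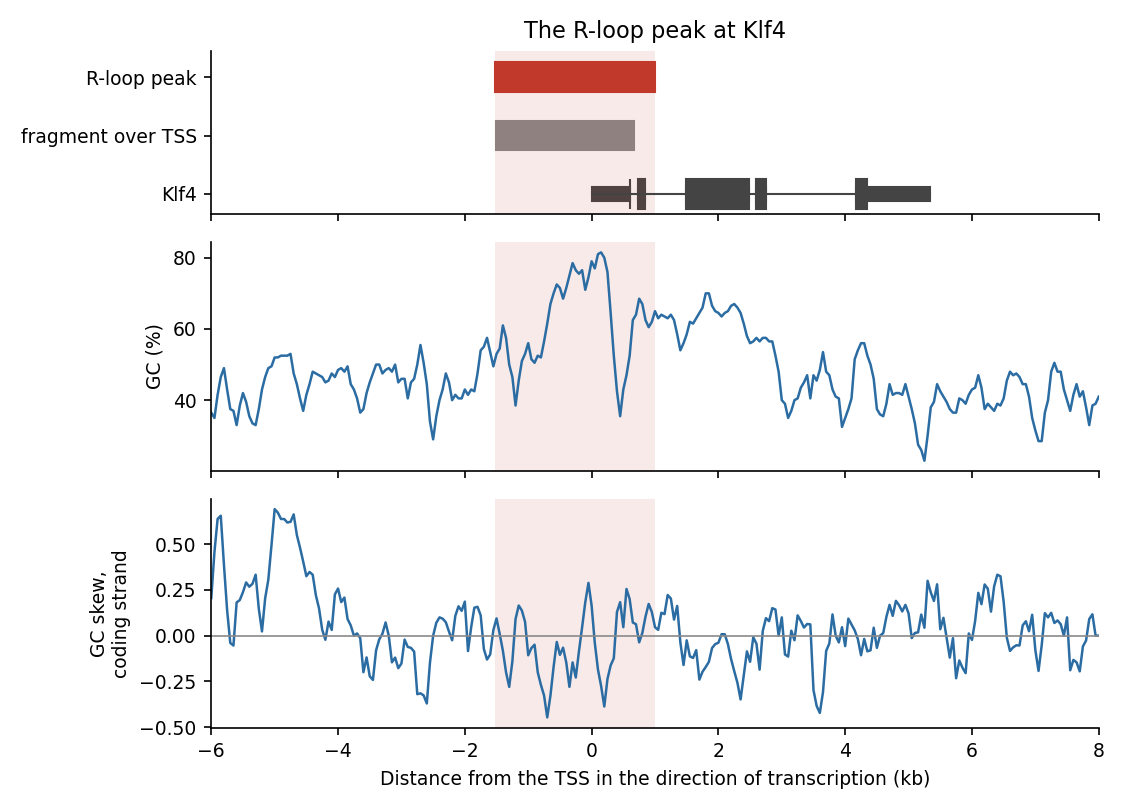
The R-loop peak at Klf4, with position relative to the TSS in kb along the direction of transcription. The upper panel shows the peak, the restriction fragment over the TSS and the transcript Klf4-001 (tall boxes coding, low boxes untranslated), and the lower panels show GC content and GC skew in windows of 200 bp. The peak (shaded) runs from 1519 bp upstream to 1003 bp into the gene and covers the GC-rich start, while skew takes both signs within it.

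Pou5f1 and Nanog, the core factors, each lay upstream of their nearest peak. Pou5f1 (ENSMUSG00000024406, chr17:35642982-35647721, plus strand) had its nearest peak 38.417 kb away on the downstream side. That peak was 4.42 kb wide, spanned chr17:35686138-35690557 and covered the start of Cdsn, a gene for an adhesion protein of the epidermis. On the upstream side the next peak was 123.031 kb away, at the start of the histocompatibility gene H2-Q4. The 5′ limit of Pou5f1 was 58.1% G or C within 1 kb on each side, yet its CpG ratio was 0.264, below that of most protein-coding genes. Nanog (ENSMUSG00000012396, chr6:122657507-122664651, plus strand) had its nearest peak 19.189 kb downstream, 1.138 kb wide and inside Slc2a3, the gene for a glucose transporter, where it touched no exon. The next peak upstream of Nanog was 122.255 kb away in Apobec1. The region around the Nanog TSS was 46.6% G or C.

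Esrrb, which encodes an orphan nuclear receptor, was the longest of the 10 genes at 160.512 kb (ENSMUSG00000021255, chr12:87702067-87862578, plus strand). Its whole length held no peak, although 63.8% of protein-coding genes of 100 kb or more overlapped at least 1. The 528 protein-coding genes in the same class of both length and GC content at the TSS (50 to 55%) overlapped a peak in 60.04% of cases. The nearest peaks on either side of Esrrb lay in no annotated gene, 29.747 kb downstream and 54.266 kb upstream. Its 6 protein-coding transcripts started at positions with 52.5 to 58.9% GC, and none of these starts lay in a peak.

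Sall4 and Zfp42 encode zinc finger proteins, and Zfp42 is also known as Rex1. Sall4 (ENSMUSG00000027547, chr2:168573832-168593443, minus strand) had its nearest peak 15.723 kb downstream in Atp9a, a gene for a phospholipid-transporting ATPase. This peak was only 0.461 kb wide, and the nearest peak of at least 1 kb was 155.718 kb away. The 5′ limit of Sall4 is set by a non-coding transcript, and the sequence there was 47.4% G or C. Its 5 protein-coding transcripts started further inside, where GC content was 52.8 to 57.2% and the CpG ratio was 0.477 to 0.719, and none of these starts lay in a peak. A lincRNA, Gm14261, overlaps Sall4 on the other strand and the peak list carries no strand. Zfp42 (ENSMUSG00000051176, chr8:44380422-44392363, minus strand) had its nearest peak 76.804 kb upstream of the TSS, in no annotated gene, and the next peak downstream was 1556.07 kb away.

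Utf1 and Dppa4, which encode chromatin-associated proteins, stood at the near and the far end of the distances among the 9 genes without a peak. Utf1 (ENSMUSG00000047751, chr7:147129688-147131011, plus strand), with 1.324 kb the shortest gene, had its nearest peak 13.783 kb downstream in the lincRNA Gm16201. This peak was 0.163 kb wide and a wider one followed at 15.029 kb. Within 100 kb of the Utf1 TSS there were 7 peaks, the highest number for any of the 10 genes, and all 7 lay on the downstream side. Together they covered 9.25% of that window. Dppa4 (ENSMUSG00000058550, chr16:48283848-48294405, plus strand) had none within 100 kb. Its nearest peak was 467.384 kb upstream, and 94.2% of protein-coding genes lay closer to a peak. On the downstream side the first peak was 699.112 kb away, over the starts of Dzip3 and C330027C09Rik.

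Lin28a and Tdgf1 both had their nearest peak on the downstream side. For Lin28a (ENSMUSG00000050966, chr4:133559245-133574756, minus strand) it lay 20.483 kb away, was 3.421 kb wide and overlapped an exon of Dhdds, which encodes an enzyme of dolichol synthesis. The sequence at the Lin28a TSS was 59.7% G or C, second to Klf4 among the 10 genes, and 60.4% of the 772 genes in its class of length and GC content overlapped a peak. A lincRNA, Gm13061, overlaps Lin28a on the other strand and was thus also free of peaks where they overlap. Tdgf1 (ENSMUSG00000032494, chr9:110842114-110848662, minus strand), the gene for the Nodal co-receptor Cripto, had its nearest peak 16.991 kb away in no annotated gene. That peak was 0.915 kb wide, and the nearest of at least 1 kb lay 52.14 kb away.

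**Figure D2:**
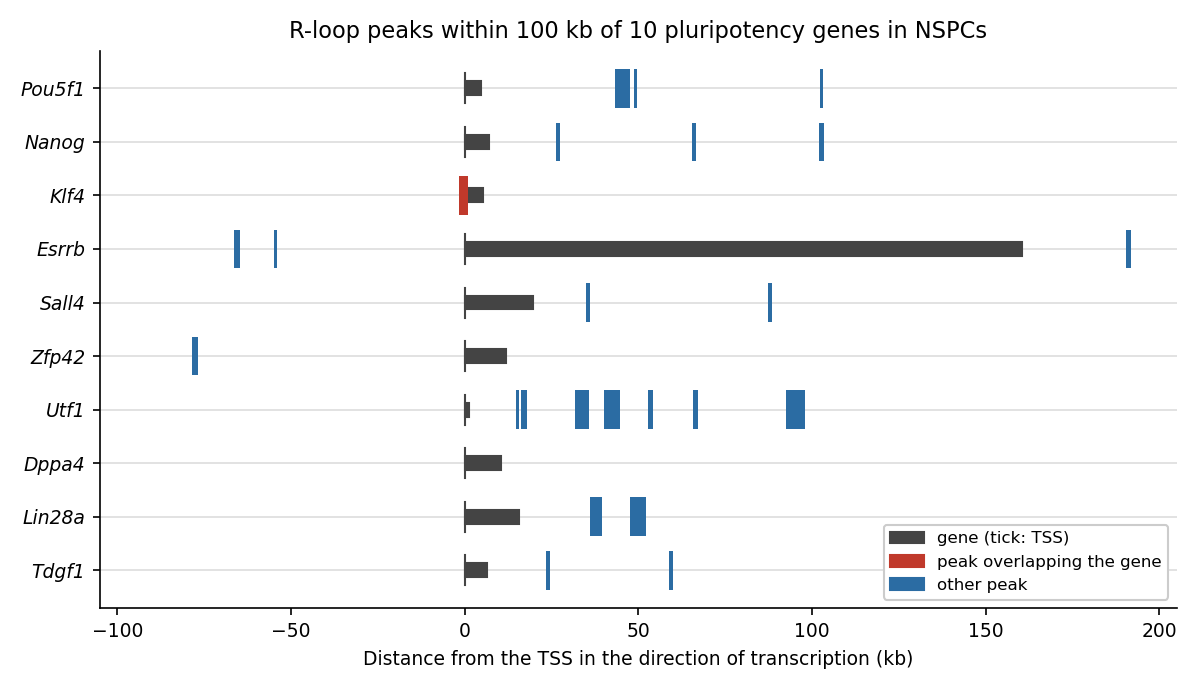
R-loop peaks within 100 kb of the limits of the 10 pluripotency genes, aligned at the TSS and oriented along transcription, in kb. Dark bars are genes, the red box is the peak at Klf4 and blue boxes are other peaks, with peaks under 1 kb drawn 1 kb wide. Klf4 is the single gene touched by a peak, Utf1 is followed by 7 peaks and Dppa4 has none in the window.

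Measured from the gene limits, the median distance of the 10 genes to the nearest peak was 19.8 kb, compared to 8.447 kb for all protein-coding genes. Genes that overlap a peak count as 0 in both medians. The medians depended on the setting, with 34.1 kb against 26.1 kb for peaks of at least 1 kb and 35.7 kb against 23.6 kb when measured from the TSS. Among genes without a peak, the median was 20.5 kb for the 9 pluripotency genes and 51.7 kb for all 13509 protein-coding genes of this kind. In order of distance Utf1, Sall4, Tdgf1, Nanog, Lin28a, Esrrb and Pou5f1 lay between 13.783 and 38.417 kb, Zfp42 followed at 76.804 kb and Dppa4 stood apart at 467.384 kb. Only Zfp42 and Dppa4 were more than 50 kb from a peak. This distance was exceeded by 30.6% of all protein-coding genes and by 6850 of the 13509 without a peak. The absence of peaks thus held for the genes and the 10 kb beside them, and for 7 of the 9 it did not extend to 50 kb. With peaks of at least 1 kb this held for 5 of the 9, since Sall4 and Tdgf1 then lay 155.718 and 52.14 kb from a peak, and 42.3% of protein-coding genes were beyond 50 kb.

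**Figure D3:**
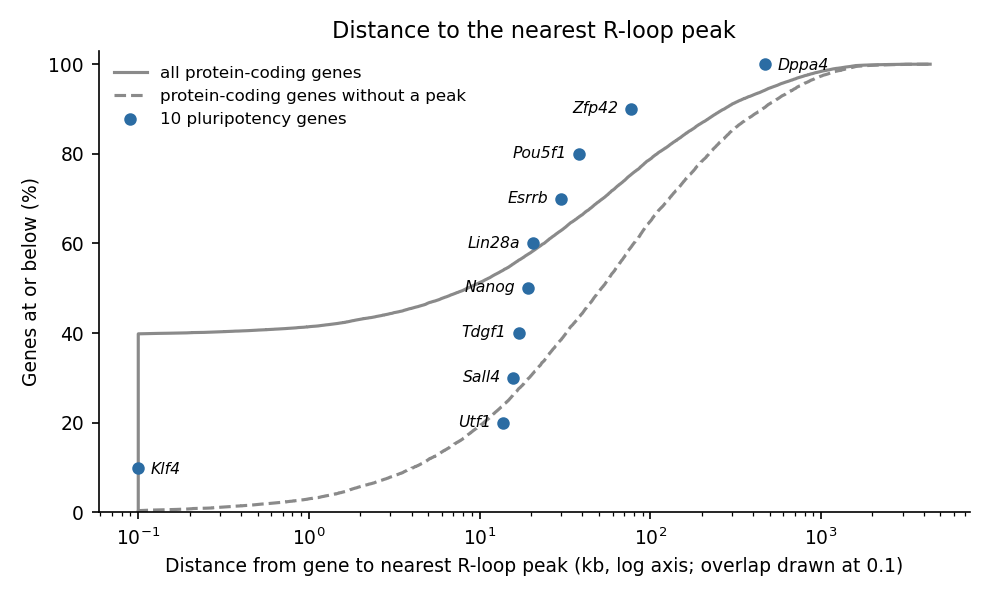
Cumulative distance from gene to nearest R-loop peak in kb (log axis, with overlap drawn at 0.1), for all protein-coding genes (solid line), protein-coding genes without a peak (dashed line) and the 10 pluripotency genes (points). From 13.783 kb (Utf1) to 38.417 kb (Pou5f1) 7 genes lie close together, and Dppa4 lies at 467.384 kb.

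The nearest peak was downstream of the gene for 7 of the 9 genes without a peak and upstream for Zfp42 and Dppa4. These 9 peaks were 0.163 to 4.42 kb wide with a median of 1.138 kb, compared to 1.322 kb for all peaks. Protein-coding genes held 4 of them (Cdsn, Slc2a3, Atp9a and Dhdds), 1 lay in a lincRNA and 4 lay in no annotated gene. Only the peak at Cdsn covered the start of a protein-coding transcript. The GC content of the 9 peaks was 43.9 to 53.4%, below the 61.8% of the Klf4 peak. Apart from width, these features were not summarised for other genes or peaks, so they mark no trait of the 9 genes.

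Of the 9 genes without a peak, 6 had a peak in the next protein-coding gene on at least 1 side, compared to 47.2% of all protein-coding genes without a peak. Both neighbours carried peaks in the case of Esrrb, with 1 in 1700020O03Rik and 3 in Vash1, and of Sall4, with 2 in Atp9a and 4 in Zfp64. Slc2a3 beside Nanog had 2 peaks, Dhdds beside Lin28a had 2, Als2cl beside Tdgf1 had 1 and 6430531B16Rik beside Utf1 had 1. The gap between Sall4 and Atp9a was 5.923 kb and that between Lin28a and Dhdds 2.412 kb, so genes with and without peaks stood close together. The peaks themselves were farther, the nearest 15.723 kb from Sall4 and 20.483 kb from Lin28a. Neither neighbour of Pou5f1 (H2-Q10 and Tcf19), of Zfp42 (Gm2221 and Adam26b) or of Dppa4 (Gm7204 and its paralogue Dppa2) had a peak. Dppa3 and Gdf3, a pair of pluripotency genes on the same chromosome as Nanog, had none either.

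How often a gene carried a peak moved with its length and its GC content across the genome. The share of protein-coding genes that overlapped a peak was 6.77% below 2 kb and 63.8% at 100 kb or more. The share with the TSS in a peak was 0.580% where 40 to 45% of the bases within 1 kb were G or C, 5.70% at 45 to 50%, 27.3% at 55 to 60% and 36.8% at 60 to 65%. The pluripotency genes spread over this range, with GC content under 50% at the TSS in 5 of them and at least 55% in 4. Sall4 counts among the 5, and in its class below, through a non-coding transcript at its 5′ limit. Its protein-coding starts had 52.8 to 57.2% GC. Those of Esrrb had 52.5 to 58.9% and those of Pou5f1 50.2 to 58.1%, so the classes of these genes also depended on the start used. Klf4 had the highest GC content of the 10 genes (64.6%), higher than 97.4% of protein-coding genes, and its CpG ratio of 0.861 exceeded that of 96.1%. The genes in its class of length and GC content overlapped a peak in 59.1% of cases. For Zfp42 and Dppa4, which share a class at 44.6% and 44.5% GC, that share was 10.7%. It was 25.1% for Nanog and Tdgf1, 31.7% for Utf1, 34.9% for Sall4 and 43.0% for Pou5f1. Lin28a, Esrrb and Pou5f1 were therefore the genes without a peak whose classes held peaks most often. The part of length and GC content in the low count was not tested. Transcription, which the paper associates with R-loop formation, was not measured in these samples, so its part was not tested either.

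GC skew in the first 1 kb of the gene did not set Klf4 apart. It was -0.0288 for Klf4, lower than in most protein-coding genes, whose median was 0.0390. Among the genes without a peak it was highest for Dppa4, at 0.188, which exceeded 94.2% of protein-coding genes. Nanog and Pou5f1 followed at 0.0749 and 0.0690. At the 5′ limit of the gene, skew was below 0 for Klf4, Utf1, Esrrb and Tdgf1, with the lowest value of -0.0947 at Utf1. These values depended on the transcript. Sall4, at 0.00205, was measured at a non-coding transcript, and skew at its protein-coding starts ran from -0.121 to 0.126. The protein-coding starts of Pou5f1 ranged from -0.124 to 0.0690, and those of Klf4 from -0.0288 to 0.0225.

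Because DNA was digested before DRIP, the fragment over each start was also measured. The fragment between restriction sites that held the TSS had a median length of 0.899 kb for the 10 genes and 1.53 kb for all protein-coding genes. Protein-coding genes were divided into 4 classes of equal size by this length, with limits at 925, 1530 and 2310 bp. From the shortest class to the longest, 2.50%, 8.31%, 17.3% and 31.3% of them had the TSS in a peak. The shortest class held 5 of the 10 genes: Nanog with a fragment of 0.251 kb, Sall4 with 0.516 kb, Pou5f1 with 0.58 kb, Zfp42 with 0.79 kb and Tdgf1 with 0.863 kb. The longest class held none at this 5′ limit, which in Sall4 is set by a non-coding transcript. Within a single class of GC content, 55 to 60%, the share was 8.49% for the shortest fragments, the class of Pou5f1, and 27.8% for those of 1530 to 2310 bp, the class of Utf1 and Lin28a. The fragment over the Klf4 TSS was 2.164 kb long, similar to that of Utf1 at 2.296 kb. These values depended on the transcript in 4 of the genes. Protein-coding starts lay on fragments of 580 to 2538 bp in Pou5f1, 1101 to 2538 bp in Sall4, 705 to 2272 bp in Esrrb and 770 to 2164 bp in Klf4. The 2538-bp fragments of Pou5f1 and Sall4 belonged to the longest class, and no protein-coding start of Sall4 to the shortest. The Klf4 transcript on the 770-bp fragment, in the shortest class, also started inside the peak. Whether fragment length contributed to the absence of peaks was not tested.

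**Figure D4:**
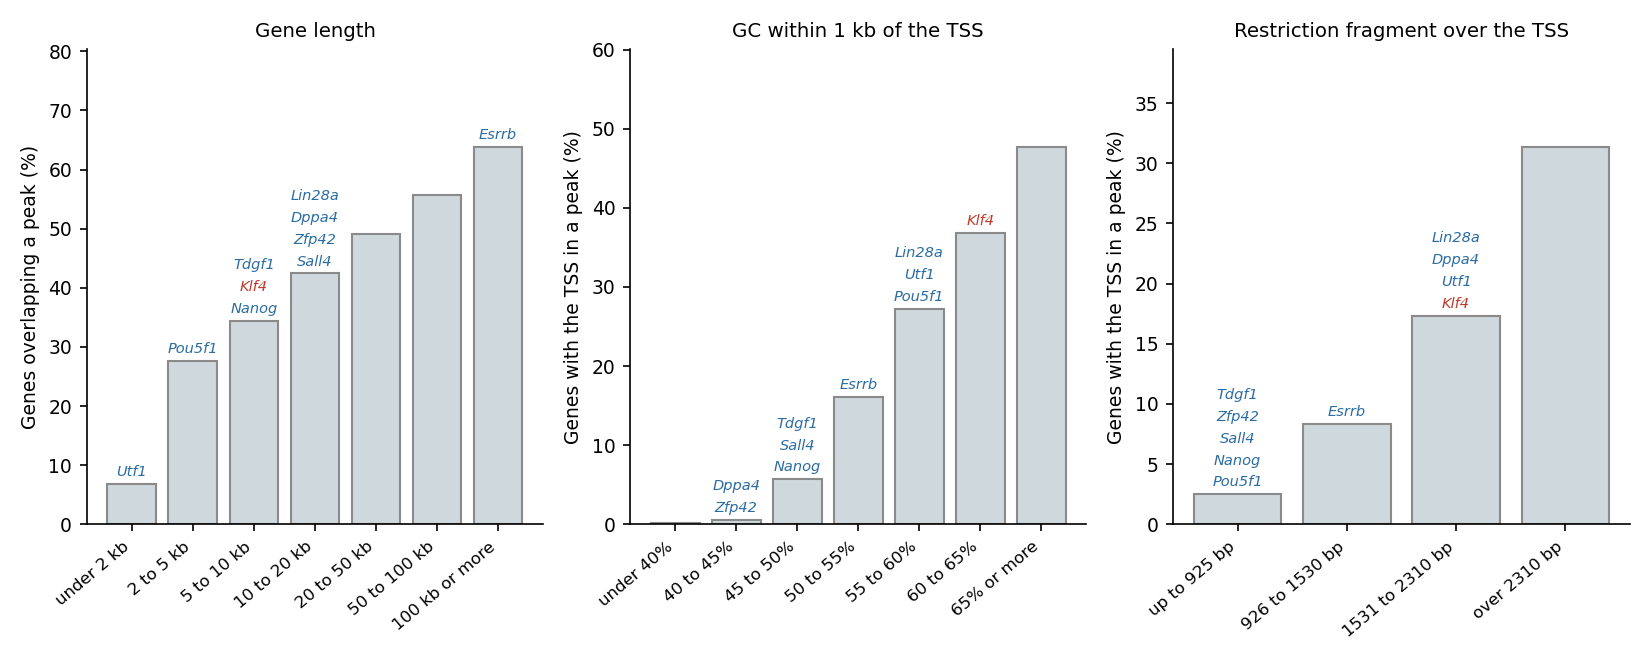
Share of protein-coding genes with a peak by gene length (left, any overlap) and with the TSS in a peak by GC content within 1 kb of the TSS (middle) and by length of the restriction fragment over the TSS (right, 4 classes of equal size), all in percent. Names above a bar are the pluripotency genes of that class, with Klf4, the gene with a peak, in red. By the 5′ limit of the gene, 5 of the 10 genes lie on the shortest fragments, where 2.50% of protein-coding genes had the TSS in a peak. Sall4 is among them through a non-coding transcript.

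Most of the sequence of these genes occurred once in the genome, although no such share was computed for other genes. Of the 50-bp words in each gene, 85.1 to 100% occurred once in the genome, with the lowest share in Nanog and the highest in Utf1. Around the TSS the share was 93.2 to 100%. Pou5f1 and Nanog are known to have processed copies elsewhere in the genome, and 89.4% and 85.1% of their 50-bp words were unique. With words of 36 bp the share within the genes ran from 77.5% in Dppa4 to 100% in Utf1.

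Several relatives of these genes carried R-loop peaks. Of a chosen list of 19 paralogues, 13 overlapped a peak (68.4%) and 8 had the TSS in one, beside 39.6% and 14.9% of protein-coding genes. Pou3f2, a POU factor of neural cells, was covered over 100% of its length, while Pou3f1, Pou3f3 and Pou3f4 had no peak. The nearest peak lay 0.262 kb from Pou3f3, which had 1 peak when 2 kb was added to each side. Its lack of a peak thus held only within the annotated gene limits. The paper, by contrast, presents Pou3f3 as forming R-loops in NSPCs but not in embryonic stem cells. It describes these R-loops as reaching into the adjacent gene Pantr1. For Pou5f1 and Lin28a the paper reports R-loops in embryonic stem cells only, and for Pou3f2 in NSPCs only. Here too, Pou5f1 and Lin28a had no peak and Pou3f2 had 1. Both accounts rest on the same NSPC data. In the Sall family all of Sall1, Sall2 and Sall3 had peaks, over 21.2%, 39.2% and 25.7% of their lengths, in contrast to Sall4. The ubiquitous factor Yy1, related to Zfp42, had 3 peaks over 47.99% of its length. Esrra had 2 peaks over 39.7% of its length, and Esrrg, a far longer gene, had 3 peaks over 0.321% of it. Lin28b had 1 peak, over 0.579% of its length and away from its TSS. Among the Krüppel-like factors on this list, Klf2, Klf6, Klf7 and Klf9 had peaks and Klf5 had none. The peak of Klf6 did not hold its TSS, unlike that of Klf4. The paralogues were not matched to the 10 genes, since the median GC content at their TSS was 59.7% against 50.1%. Dppa2 and Cfc1, the paralogues of Dppa4 and Tdgf1, had no peak.

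Further genes of the pluripotency network were counted in the same manner. Of 32 such genes 7 overlapped a peak (21.9%, beside 39.6% of all protein-coding genes). The TSS lay in a peak for 5 of them (15.6%), close to the 14.9% of all protein-coding genes. Their median distance to a peak was 20.3 kb. The 7 were Sox2 (2 peaks), Klf2, Lin28b, Zfp281, Stat3 (3 peaks), Sall1 and Jarid2 (2 peaks). Several of these have roles outside pluripotent cells, as Sox2 does in neural progenitors and Stat3 in cytokine signalling. After leaving out the 6 genes that also stand in the list of paralogues or of neural progenitor genes, 3 of 26 remained with a peak (11.5%), namely Zfp281, Stat3 and Jarid2. The genes left out include Sox2, Klf2, Lin28b and Sall1, which had peaks, so the lower share follows from the choice of lists. Tbx3, Tcfcp2l1, Nr0b1, Nr5a2, Prdm14, Fgf4, Nodal, Zscan10, Tet1 and Mycn were among the 25 of the 32 genes with no peak. The distances of these 25 genes to the nearest peak ran from 1906 bp for Eras to 494126 bp for Dppa2.

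Marker genes were used to see how peaks fell on genes of the labelled cell type, with the reservation that a peak marks hybrids and not expression. Beside 39.6% of all protein-coding genes with a peak and 14.9% with the TSS in one, 11 of 14 neural progenitor genes overlapped a peak (78.6%) and 8 had the TSS in one, among them Nes, Vim, Sox2, Sox9 and Olig2. The median GC content at the TSS of this list was 60.045% and its median CpG ratio 0.692, against 51.1% and 0.468 for all protein-coding genes, and the part of this difference in the counts was not tested. Pax6, Hes5 and Fabp7 had no peak, and Sox1 could not be matched by symbol. Peaks overlapped 2 of 6 neuron, 1 of 4 oligodendrocyte, 1 of 4 microglia and 1 of 3 endothelial genes, and none of these 17 genes had its TSS in a peak. These lists are too short to set against the shares of all protein-coding genes. The genes of these lists with a peak were Syn1, Mtap2, Mbp, Csf1r and Pecam1.

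**Figure D5:**
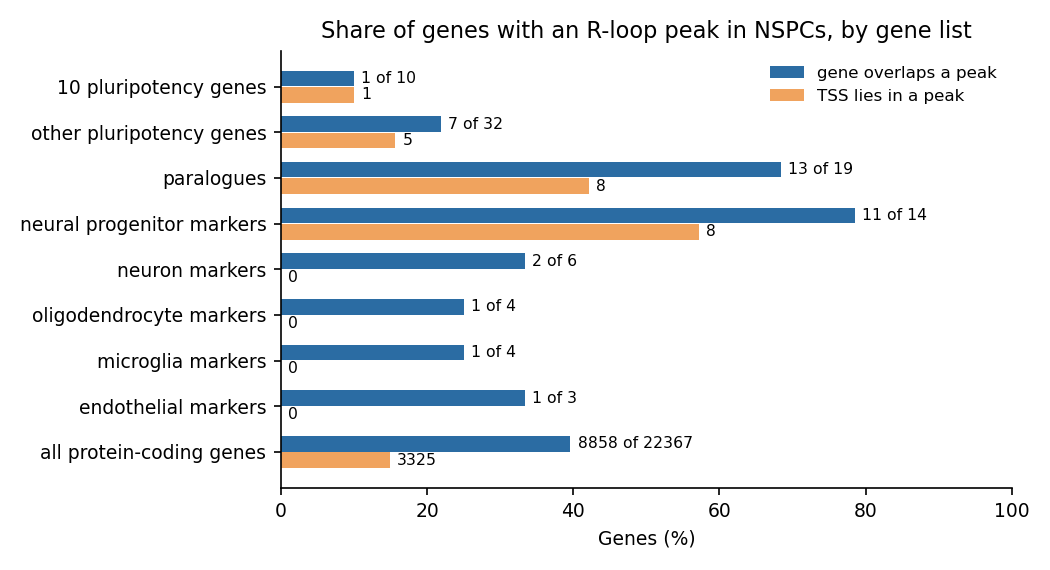
Share of genes in each list that overlapped an R-loop peak (blue) or had the TSS in one (orange), in percent, with counts beside the bars. The 10 pluripotency genes have 1 gene with a peak, the paralogues 13 of 19 and the neural progenitor markers 11 of 14, next to 39.6% of all protein-coding genes. Some genes stand in more than 1 list. The neuron, oligodendrocyte, microglia and endothelial lists hold 3 to 6 genes, too few to set against the share of all protein-coding genes.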

How the data were processed

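The authors digested genomic DNA of NSPCs with EcoRI, HindIII, BsrGI, SspI and XbaI, treated it with RNase A and precipitated hybrids with S9.6, with 3 DRIP reactions for each of 3 biological replicates. Reads were trimmed (Trim Galore 0.6.6, per the submitters' processing notes), aligned to mm9 and freed of duplicates, and a Hidden Markov Model was used to call peaks. How replicates were combined is not given in the sources used here. The deposited list holds other values than counts, namely the start and end of each of 22132 peaks in bp, with no signal. The input was not analysed here.

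GENCODE M1 genes and the mm9 sequence gave the positions to compare with the peaks. Overlap was counted from 1 bp, distance from gene limits to peak edges, GC content within 1 kb of the TSS, and unique words on both strands. The genes, lists and alternatives were chosen with earlier results of these data known. All 10 genes, their neighbours and listed genes may be named. The starts of single transcripts and the shares by GC content and fragment length together were added after seeing the data. No test was run. Overlap steps were tested on simulated data. Python 3.11.15, numpy 2.4.6, pandas 2.3.3, numba 0.67.0 and matplotlib 3.10.9 were used.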

Additional observations from a re-analysis of the deposited data

How the results depend on the processing

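Klf4 remained the single gene of the 10 with a peak for peaks of at least 1 kb, for merged peaks, for protein-coding transcripts alone and with 2 or 10 kb added, and the count was 0 when the midpoint of the peak or at least 50% of its width had to lie in the gene. The median distance of 19.836 kb was 34.082 kb for peaks of at least 1 kb, 35.664 kb from the TSS and 20.975 kb to peak midpoints. With that width limit Sall4 moved from 15.723 to 155.718 kb, Tdgf1 from 16.991 to 52.14 kb and Dppa4 from 467.384 to 699.112 kb. The median GC content of 50.1% was 52.7% within 500 bp and 50.3% within 2 kb. The median skew of 0.0141 was 0.0580 over the first 500 bp and 0.0321 over the first 2 kb. The median share of unique words, 91.0%, was 87.5% for 36 bp and 98.0% for 100 bp. Paralogues with a peak numbered 10 for peaks of at least 1 kb and 14 with 2 kb added, and other pluripotency genes 6 and 8. The cause of these shifts was not tested. No paired analysis was possible because there was 1 peak list. Replicates could not be left out for the same reason, and the missing depth leaves the limit of detection unknown.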
